A study of Rattus norvegicus with 9 samples.

Results

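H/ACA box small nucleolar RNA (snoRNA) genes are described here in CD4+ T cells from the blood of rats. They were taken as all entries whose gene name began with SNORA, with the values of an entry summed per name and assembled locus. Of 1263 such entries, 627 were at 0 in every library and 636 were above 0 in at least 1. The 98 entries that averaged 1 TPM or more over the 9 libraries (TPM is a transcript's length-scaled share of all transcripts in a library) are the genes described, and they carried 55 of the 71 names. They were 98 of the 14177 genes of the whole data set that reached this mean. The study compared combination rats, which had CIA and received a combination of compounds for 4 weeks, model rats, which had CIA without it, and normal rats. CIA is taken to mean collagen-induced arthritis, the study being about rheumatoid arthritis, and no label names the compounds. All rats were SD rats of 8 to 10 weeks, and each group had 3 libraries of total RNA. Whether a library stands for 1 animal is not given, so a p-value reflects only the spread from library to library, which may be technical.

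H/ACA snoRNAs fold into a pair of hairpins followed by the H and ACA boxes, and each guides the conversion of chosen uridines to pseudouridine in ribosomal or spliceosomal RNA. The RNA works in a particle with dyskerin (Dkc1), which is the enzyme, and the proteins Nop10, Nhp2 and Gar1. In vertebrates most H/ACA snoRNAs are cut from introns of longer genes, called hosts, after splicing. Many hosts encode ribosomal proteins or translation factors, and many such genes begin with a run of pyrimidines that ties their translation to growth signals. A snoRNA is thus made with its host's transcript but is stable on its own, so that the levels of a snoRNA and its host need not move together.

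In these files, 65 of the 98 snoRNA genes lay inside the span of a longer named gene on the same strand, and 33 did not. An entry with 2 named transcripts was given 1 span, from the first start to the last end. The SNORA2 entry at 140132805 to 140198001 on chromosome 7 therefore counts among the 33. It starts inside Kansl2 and ends inside LOC103690317, both on its strand. The 65 had 50 distinct hosts: 64 lay in an intron, and SNORA69 overlapped an exon of Rpl39 in part. Judged by gene symbol alone, hosts encoded ribosomal proteins for 17 of the snoRNA genes, translation factors for 9 and other products for 39. These snoRNA genes lay in 13, 5 and 32 hosts, so those of 1 host are counted separately. Hosts with placeholder symbols, such as LOC100911575, LOC100362027 and NEWGENE_619861, were placed among the others whatever they encode. LOC100911575 has the same assembled locus and exon length (348 bases) as Rplp2. The snoRNA genes were 108 to 246 bases long, with a median of 132, and 88 of 98 were 110 to 150 bases long. Names and lengths were the only available checks of the H/ACA label, because no snoRNA sequence was at hand. The starts of hosts that recur in the results are shown because they differ in the longest pyrimidine run near the annotated start. Each line gives 25 bases before and 25 after the annotated start in RefSeq (build GRCr8), with the longest run of C or T in capitals. A marked run can lie on either side of that start, so it need not begin the transcript. In Tpt1, Eif4a2 and Taf1d it lies wholly before the annotated start.
Rps2 (host of SNORA64, chr10:14251823-14251872, plus strand): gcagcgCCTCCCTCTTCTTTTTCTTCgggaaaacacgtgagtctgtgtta
Rpl27a (host of both SNORA3 genes, chr1:172974548-172974597, plus strand): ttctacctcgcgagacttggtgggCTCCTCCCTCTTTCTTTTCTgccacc
Tpt1 (host of SNORA31, chr15:57566119-57566168, plus strand): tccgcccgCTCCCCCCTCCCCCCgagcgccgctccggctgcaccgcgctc
Eef1b2 (host of SNORA41, chr9:72074066-72074115, plus strand): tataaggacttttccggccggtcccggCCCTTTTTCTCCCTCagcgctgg
Eif4a2 (host of SNORA63, SNORA81 and SNORA4, chr11:91275299-91275348, minus strand): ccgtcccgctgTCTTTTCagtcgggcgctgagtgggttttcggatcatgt
Taf1d (host of 6 snoRNA genes, chr8:20427951-20428000, plus strand): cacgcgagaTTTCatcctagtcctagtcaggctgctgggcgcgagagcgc
Odc1 (host of SNORA42, chr6:46058640-46058689, plus strand): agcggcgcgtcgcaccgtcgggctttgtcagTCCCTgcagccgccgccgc
The run was 20 bases in Rps2 and Rpl27a, 15 in Tpt1 and Eef1b2, 7 in Eif4a2, 5 in Odc1 and 4 in Taf1d. Of the 50 hosts, 36 were matched by symbol in the RefSeq table. A run of at least 8 pyrimidines lay in this window in 17 of these 36 (47.2%), including 9 of 11 ribosomal protein hosts, against 19.4% of all 33469 promoters in the table. On the opposite strand the shares were 11.1% of the 36 hosts and 20.9% of all promoters.

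The libraries held 7.52 to 10.1 gigabases of aligned sequence. Model replicate 2 stood apart from the other model libraries: on the first principal component of all tested genes, which held 27.6% of the variance, it lay at 0.361, within the combination libraries (-3.66 to 7.84), while the other model libraries lay at 39.1 and 57.8 and the normal libraries between -40.4 and -30.8. Of the 7 T cell markers listed, 6 were found in the files and none was at 0 in any library. Their summed level was 1749 to 2135 TPM in combination, 1433 to 1928 TPM in model and 1958 to 2631 TPM in normal libraries. Markers of other blood cells also moved. The 4 of 5 listed erythroid genes that were found summed to 258 to 862 TPM in combination, 2396 to 16140 TPM in model and 58 to 1115 TPM in normal libraries, with Slc4a1 at 0 in some. All 5 monocyte markers were found, and their sum was 262 to 516 TPM in combination, 54.6 to 155 TPM in model and 22.6 to 129 TPM in normal libraries. The 4 platelet markers summed to 66.3 to 107 TPM in combination, 17.9 to 32.3 TPM in model and 10.3 to 26.5 TPM in normal libraries, with Ppbp at 0 in some. Sums of the 4 neutrophil markers were 4.07 to 6.68 TPM in combination, 0.284 to 8.30 TPM in model and 13.6 to 32.3 TPM in normal libraries, with Elane, Mpo and S100a8 at 0 in some. The 4 B cell markers summed to at most 25.0 TPM, and the 6 cytotoxic and NK markers to 48.7 to 72.2 TPM in combination, 33.0 to 53.0 TPM in model and 57.3 to 96.7 TPM in normal libraries, with Gzmb at 0 in some. The part of these cells in the snoRNA results was not tested.

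Summed over the 98 genes, H/ACA snoRNAs were lowest in the model libraries. The sum was 1293, 959 and 998 TPM in the combination libraries, 699, 650 and 894 TPM in the model libraries and 1333, 1373 and 1079 TPM in the normal libraries. Every model library was below every library of the other groups, while combination and normal libraries overlapped. The 50 hosts together held 70800 to 79310 TPM in combination, 72680 to 75720 TPM in model and 79390 to 82220 TPM in normal libraries. Of the 98 genes, 77 had their lowest value in a model library, 7 in a combination library and 14 in a normal library. The same count was not made over all genes. Summed C/D box snoRNA genes (SNORD) were also lowest in the model libraries, at 827.5 to 1074 TPM against 1469 to 2125 TPM in the others. In bulk RNA, fewer cells of a type and less RNA per cell cannot be told apart.

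**Figure D1:**
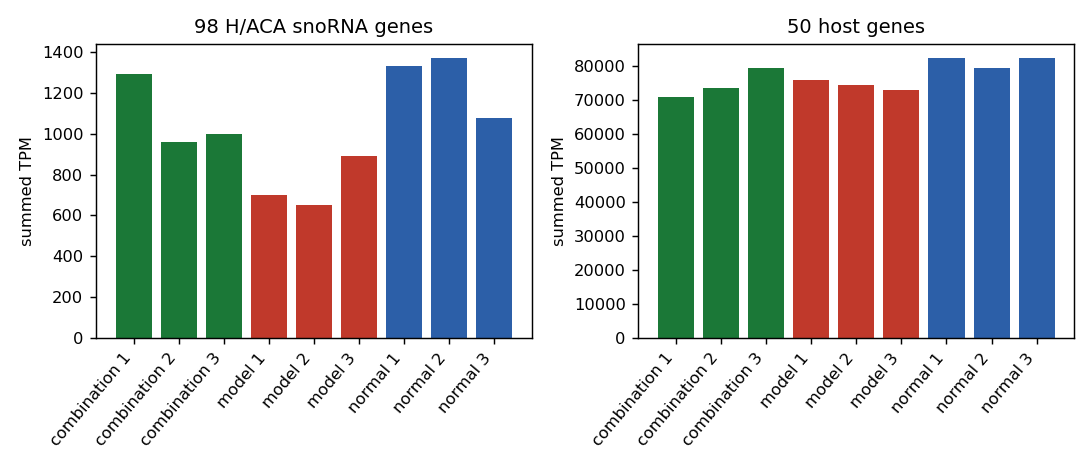
Summed TPM of the 98 H/ACA snoRNA genes (left) and of their 50 hosts (right) in each of the 9 libraries, coloured by group. The snoRNA sums of the 3 model libraries (650 to 894 TPM) lie below those of all others (959 to 1373 TPM), whereas the host sums of model and combination libraries overlap.

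Levels of single snoRNAs spanned a wide range: the median gene had a mean of 4.09 TPM, 27 genes reached 10 TPM and 53 stayed under 5 TPM. SNORA70, in an intron of the ribosomal protein gene Rpl10, was the most abundant, with 148, 115 and 124 TPM in combination, 117, 81.3 and 156 TPM in model and 151, 137 and 97.3 TPM in normal libraries. The 3 groups overlapped fully for this gene. SNORA62 in Rpsa followed, with 54.8, 51.9 and 57.2 TPM in combination, 44.6, 64.9 and 56.2 TPM in model and 96.3, 104 and 63.0 TPM in normal libraries. SNORA28 had 77.9, 48.0 and 54.4 TPM in combination, 41.9, 28.9 and 91.0 TPM in model and 42.2, 49.4 and 38.4 TPM in normal libraries, and the groups overlapped. SNORA3 in Rpl27a, SNORA64 in Rps2 and SNORA7 in Rpl32 had overall means of 49.8, 48.1 and 47.1 TPM, which differed by less than the spread between libraries. SNORA24, SNORA67, SNORA42 and SNORA31 completed the 10 most abundant, with means of 36.2, 32.7, 27.7 and 27.5 TPM, the last pair again closer than their spread.

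**Figure D2:**
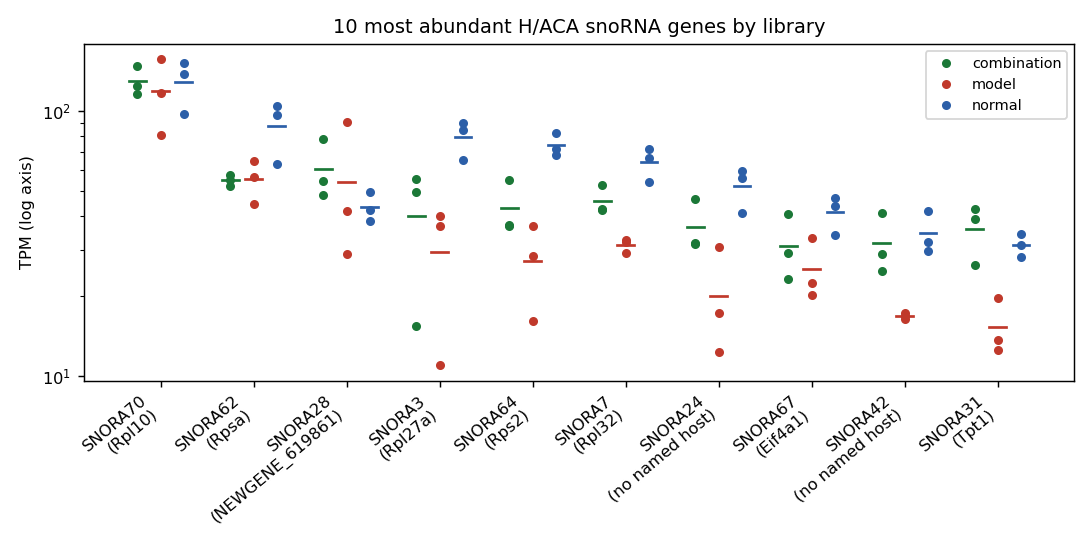
TPM on a log axis in each library for the 10 H/ACA snoRNA genes of highest mean, with the host in brackets. Points are libraries and short lines are means of 3 libraries. For SNORA64, SNORA7, SNORA42 and SNORA31 all model libraries lie below all normal libraries, while the groups of SNORA70 overlap.

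In model against normal cells, 25 of the 98 H/ACA snoRNA genes were lower and 0 were higher. The test was limma on log2(TPM + 1) across all 14177 genes, with a Benjamini-Hochberg adjusted p under 0.05. Over all genes, 2.14% were lower and 2.83% higher by the same rule. At an unadjusted p under 0.05, 48 of the 98 snoRNA genes were lower and 2 higher, against 1787 lower and 2053 higher of all 14177 genes. The median log2 fold change of the snoRNA genes was -0.58, against -0.01 over all genes, and 86 of 98 were negative. For 53 of the 98, every model library was below every normal library, against 14.4% of all genes. The snoRNA genes were not alone in this direction: of 100 C/D box snoRNA genes (SNORD), which guide ribose methylation, 48 were lower and 0 higher, with a median of -0.95. Of all 427 other named genes under 300 bases, SNORD included, 64 were lower and 3 higher, with a median of -0.34. Small Cajal body RNAs (SCARNA), which modify spliceosomal RNA, were lower in 2 of 15, and spliceosomal RNA genes in 0 of 63 with 0 higher. One of 16 microRNA genes and 1 of 17 genes of 7SK, a regulator of transcription elongation, were lower. The single vault or Y RNA gene did not pass, at a log2 fold change of 0.78.

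SNORA26, which had no named host, changed most among these 25. It had 0.616, 0.996 and 1.75 TPM in model libraries and 6.48, 7.07 and 6.66 TPM in normal libraries, and its log2 fold change was -1.90 ± 0.21 (SE; adjusted p = 0.0074 by limma). SNORA72 had 1.90, 1.20 and 0.827 TPM in model and 8.82, 8.33 and 5.24 TPM in normal libraries, with no overlap and a log2 fold change of -1.87 ± 0.27 (adjusted p = 0.015 by limma). SNORA16 had 4.13, 6.90 and 4.98 TPM in model and 20.8, 19.2 and 16.8 TPM in normal libraries (log2 fold change -1.67 ± 0.20, adjusted p = 0.0091 by limma). In all 3 of these genes the highest model library was well under the lowest normal library. SNORA52 in LOC100911575 had 1.13, 0.757 and 2.27 TPM in model and 6.37, 7.65 and 5.21 TPM in normal libraries, and its second locus, in Rplp2, had 0.795, 0.699 and 1.68 TPM in model and 5.11, 6.20 and 4.08 TPM in normal libraries. Both loci fell, by 1.67 and 1.59 on the log2 scale. Both are 134 bases long and their hosts share an assembled locus. Reads may have been split between them, so they should not be read as separate results. SNORA41, in an intron of the elongation factor gene Eef1b2, had 1.53, 3.52 and 2.90 TPM in model and 12, 9.15 and 8.05 TPM in normal libraries, and fell by 1.58 on the log2 scale.

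Among abundant genes, SNORA64 had 36.9, 16.2 and 28.4 TPM in model libraries and 71.6, 82.3 and 68.4 TPM in normal libraries, with a log2 fold change of -1.48 ± 0.28 (adjusted p = 0.026 by limma). SNORA7 had 29.2, 32.6 and 31.9 TPM in model and 66.5, 72.0 and 54.0 TPM in normal libraries (log2 fold change -1.01 ± 0.16, adjusted p = 0.019 by limma). Both hosts encode ribosomal proteins, and in both cases the groups did not overlap. Of the 10 most abundant genes, 5 did not pass: SNORA70, SNORA62, SNORA28, SNORA67 and SNORA3. The larger SNORA3 locus, in Rpl27a, had 11, 36.9 and 40.2 TPM in model and 89.8, 84.7 and 65.5 TPM in normal libraries, with a log2 fold change of -1.59 ± 0.54 that did not pass (adjusted p = 0.11 by limma). Its groups did not overlap. The smaller SNORA3 locus in the same host was lower and passed (log2 fold change -1.05 ± 0.23, adjusted p = 0.035 by limma). SNORA73, known as U17 or E1 and needed for ribosomal RNA cleavage rather than pseudouridylation, had 6.06, 4.23 and 5.12 TPM in model and 9.29, 8.42 and 9.07 TPM in normal libraries at its locus in Rpsa (log2 fold change -0.70 ± 0.17, adjusted p = 0.049 by limma). By host, 9 of 17 snoRNA genes in ribosomal protein genes were lower, 2 of 9 in translation factor genes, 5 of 39 in other hosts and 9 of 33 without a named host. Among the 5 in other hosts, SNORA72 and 1 SNORA52 locus lay in hosts with LOC symbols, whose products were not checked. Differences between these classes were not tested.

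The number of lower genes moved with single libraries, as did the number over all genes. With normal replicate 1, 2 or 3 omitted it was 2, 3 or 6, with model replicate 1 or 3 omitted 14 or 11, and with combination replicate 2 omitted 15, all lower; the share lower over all genes in these fits was 0.141% to 0.966%, while the snoRNA genes had a median of -0.57 to -0.66. With model replicate 2 omitted, 30 were lower and 2 higher, against 11% lower and 8.82% higher over all genes. It was 4 with no filter on low values, 8 in a fit of only these groups and 39 on FPKM, another length-scaled unit, all lower, against 0.173%, 0.444% and 4.41% of all genes, and 35 were lower and 0 higher when genes of haemoglobin, mitochondria and ribosomal proteins were left out of the TPM total, against 4.04% lower over all genes.

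**Figure D3:**
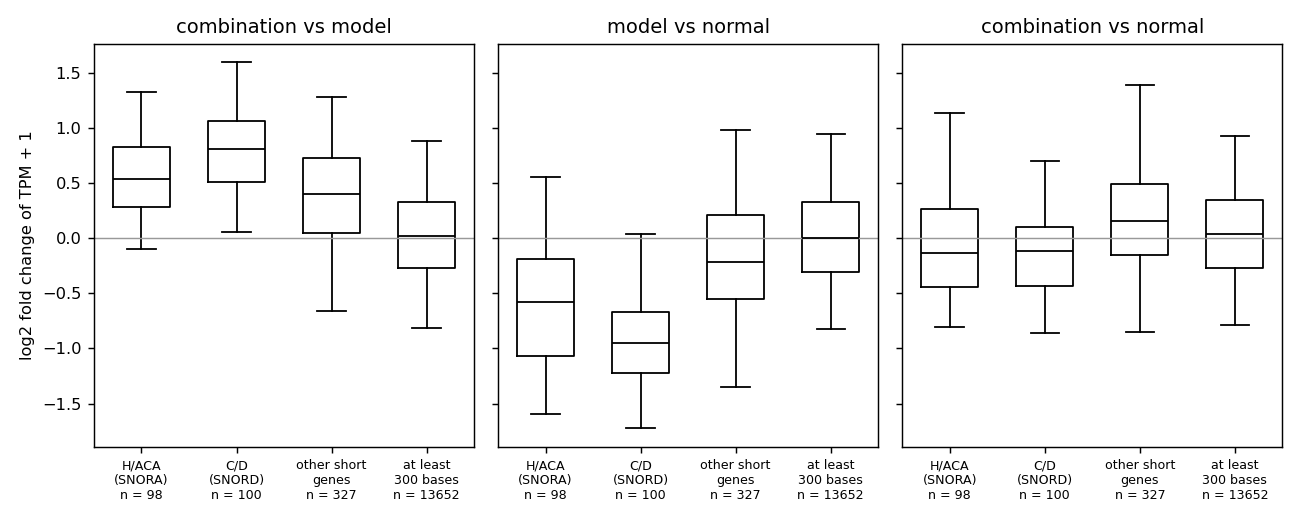
Log2 fold change of TPM + 1 for H/ACA snoRNA genes, C/D snoRNA genes, other named genes under 300 bases and genes of at least 300 bases, in each comparison. The other genes under 300 bases are shown here without the C/D genes. Boxes span the quartiles, the line is the median and whiskers reach the 5th and 95th percentiles. H/ACA genes have medians of 0.53, -0.58 and -0.14 in the panels from left to right, and genes of at least 300 bases have medians near 0.

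In combination against model cells, 12 of the 98 H/ACA snoRNA genes were higher and 0 were lower by limma. Over all 14177 genes 2.41% were higher and 2.08% lower. At an unadjusted p under 0.05, 42 of the 98 snoRNA genes were higher and 0 lower, against 1996 higher and 1732 lower of all 14177 genes. The median log2 fold change of the snoRNA genes was 0.53, against 0.03 over all genes, and 90 of 98 values were positive. In 37 of the 98, every combination library was above every model library, against 13.9% of all genes. Other short genes again moved the same way: 27 of 100 SNORD genes were higher and 0 lower, with a median of 0.80. Of the 427 named short genes other than SNORA, which again include these SNORD genes, 45 were higher and 1 lower, with a median of 0.48. Among spliceosomal RNA genes 4 of 63 were higher, among SCARNA genes 1 of 15, among microRNA genes 1 of 16 and among 7SK genes 0 of 17. This comparison shares its model libraries with that of model against normal, so that the same low values enter both.

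SNORA4, in an intron of the translation initiation helicase gene Eif4a2, had 19.3, 18.7 and 16.2 TPM in combination libraries and 4.61, 3.56 and 5.42 TPM in model libraries. At 1.80 ± 0.18 (SE; adjusted p = 0.0085 by limma), its log2 fold change was the largest of the 98. SNORA72 had 8.06, 4.35 and 6.54 TPM in combination and 1.90, 1.20 and 0.827 TPM in model libraries (log2 fold change 1.66 ± 0.27, adjusted p = 0.026 by limma). SNORA26 had 3.89, 4.99 and 4.29 TPM in combination and 0.616, 0.996 and 1.75 TPM in model libraries (log2 fold change 1.38 ± 0.21, adjusted p = 0.024 by limma). None of these overlapped between the groups. SNORA63, at 1 of its loci in Eif4a2, had 28.9, 21.0 and 19.0 TPM in combination and 10.1, 5.71 and 9.22 TPM in model libraries. SNORA19 in Eif3a, a subunit of initiation factor eIF3, had 8.20, 7.30 and 7.24 TPM in combination and 2.50, 1.44 and 3.67 TPM in model libraries. Their log2 fold changes were 1.37 and 1.33, without overlap between the groups. SNORA31 in Tpt1, an abundant growth-associated gene, had 39.2, 42.6 and 26.2 TPM in combination and 19.6, 12.6 and 13.7 TPM in model libraries (log2 fold change 1.18 ± 0.23, adjusted p = 0.031 by limma). Others that rose were SNORA81 in Eif4a2, SNORA52 in LOC100911575, SNORA8 in Taf1d, SNORA41 in Eef1b2 and SNORA13 without a named host, with log2 fold changes of 1.06 to 1.25. By host, 5 of 9 snoRNA genes in translation factor genes were higher and 1 of 17 in ribosomal protein genes. In other hosts 4 of 39 were higher, and 2 of 33 without a named host. Among the 5, SNORA4, SNORA63 and SNORA81 share the host Eif4a2. Among the 4, SNORA72 and SNORA52 lay in hosts with LOC symbols, whose products were not checked. The differences between classes were not tested.

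The number of higher genes was 1, 1 or 5 with combination replicate 1, 2 or 3 omitted, 2 with model replicate 3 omitted, and 4, 4 or 7 with normal replicate 1, 2 or 3 omitted. In these fits the share higher over all genes was 0.106% to 1.78%, and the median of the snoRNA genes was 0.45 to 0.64. It was 1 in a fit of only these groups, 3 with no filter and 7 of the 45 genes that averaged 5 TPM or more, against 0.12%, 0.385% and 1.90% higher over all genes, and 21 each on FPKM, with libraries rescaled by the median ratio of all genes (median-ratio scaling) and with genes of haemoglobin, mitochondria and ribosomal proteins left out of the total, against 5.47%, 4.97% and 6.25%. Under this last setting the split over all genes was 878 higher and 497 lower, against 342 higher and 295 lower, and the median of all genes was 0.11 against 0.67 for the snoRNA genes.

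In combination against normal cells, few H/ACA snoRNA genes passed. By limma 2 were higher and 1 lower, against 2.63% higher and 1.95% lower over all genes. At an unadjusted p under 0.05, 12 of the 98 were higher and 15 lower. Over all 14177 genes 2030 were higher and 1672 lower at that level, which are similar shares. The median log2 fold change of the snoRNA genes was -0.14, against 0.04 over all genes. SNORA4 had 19.3, 18.7 and 16.2 TPM in combination and 11.3, 8.93 and 10.2 TPM in normal libraries (log2 fold change 0.77 ± 0.18, adjusted p = 0.046 by limma). SNORA19 in Eif3a had 8.20, 7.30 and 7.24 TPM in combination and 1.93, 3.24 and 2.58 TPM in normal libraries (log2 fold change 1.27 ± 0.25, adjusted p = 0.035 by limma). Both were above the normal libraries in every combination library. SNORA16 was lower, with 9.37, 6.69 and 7.55 TPM in combination and 20.8, 19.2 and 16.8 TPM in normal libraries (log2 fold change -1.18 ± 0.20, adjusted p = 0.026 by limma). In 22 of the 98 every combination library was below every normal library and in 9 above it, against 17.9% each way over all genes. The snoRNA genes in ribosomal protein hosts had negative values in 16 of 17, with a median of -0.47 and none past the threshold. Those in translation factor hosts were positive in 6 of 9, with a median of 0.58, but these 9 lay in 5 hosts. All 6 positive values came from Eif4a2 and Eif3a. The snoRNA genes in Eif4a1, Eif3k and Eef1b2 had negative values (-0.43, -0.42 and -0.51). No snoRNA gene passed without normal replicate 1 or 2 or without combination replicate 1 or 2, 1 passed without normal replicate 3, and 4 higher and 4 lower passed without model replicate 2, against 5.16% higher and 5.99% lower over all genes. In other settings the number was 1 with no filter, 5 with genes of haemoglobin, mitochondria and ribosomal proteins left out, 6 with median-ratio scaling, and 7 each on FPKM and in a fit of only these groups, against 0.239% to 5.45% of all genes in each direction in these settings.

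Each snoRNA was also set against its host, as the difference of log2(TPM + 1) between them in the same library, tested by limma over all 212 short genes that had a host, H/ACA or not. In model against normal cells this ratio was lower for 26 of 65 H/ACA snoRNA genes and higher for 0. At an unadjusted p under 0.05 it was lower for 37 and higher for 0, against 103 lower and 4 higher of all 212. At the adjusted threshold 38.7% of all short genes with a host were lower and 0.472% higher. The share among H/ACA genes was thus near that of the short genes as a whole. The median change of the ratio was -0.66 on the log2 scale, while the hosts' own median change was 0.06. In combination against model cells the ratio was higher for 26 of 65 and lower for 0, against 34.0% higher among all such short genes. At an unadjusted p under 0.05 it was higher for 32 and lower for 0, against 88 higher and 1 lower of all 212. In combination against normal cells the ratio was lower for 2 and higher for 0, against 1.89% lower among all 212. At an unadjusted p under 0.05, 11 of the 65 were lower and 6 higher, against 29 lower and 23 higher of all 212, which are similar shares. The 2 became 1 when normal replicate 1 or 3 or combination replicate 2 or 3 was omitted, and 4 (3 lower, 1 higher) when model replicate 1 was omitted. Of the 50 hosts themselves, 3 were higher and 1 lower in model against normal cells, and 0 were higher and 2 lower in combination against model cells. Leaving out each library in turn gave 19 to 27 lower ratios in model against normal cells. In combination against model cells the number was 15 without model replicate 1, 13 without combination replicate 1 and 17 without combination replicate 3.

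**Figure D4:**
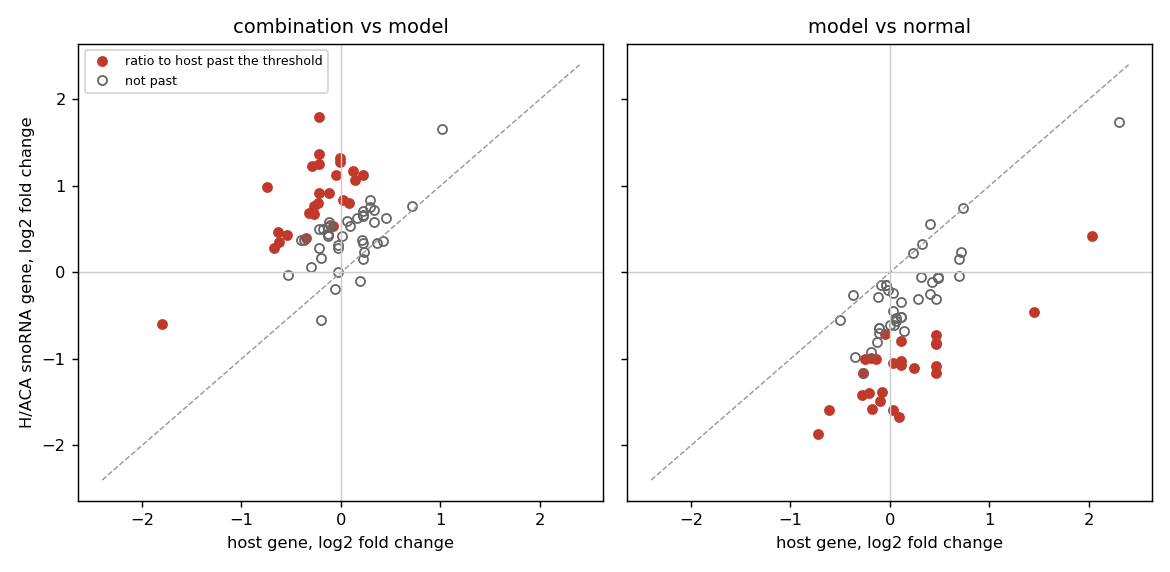
Log2 fold change of each of the 65 H/ACA snoRNA genes (vertical axis) against that of its host (horizontal axis), for combination against model (left) and model against normal (right). Filled points are the 26 genes in each panel whose ratio to the host passed the threshold, and the dashed line marks equal change. Most points lie above the line on the left and below it on the right.

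The clearest case of several snoRNAs in 1 host was Eif4a2 (rn6 chromosome 11, 81373048 to 81379871, minus strand), whose introns held 4 H/ACA snoRNA genes. The host itself had 413, 388 and 381 TPM in combination, 428, 359 and 633 TPM in model and 478, 434 and 374 TPM in normal libraries, and the groups overlapped. SNORA4 (81375246 to 81375385) and the SNORA63 locus beside it (81375575 to 81375703) were described above. SNORA81 (81376500 to 81376677) had 21.3, 18.3 and 15.9 TPM in combination, 9.89, 4.39 and 8.12 TPM in model and 9.54, 11 and 7.59 TPM in normal libraries. The second SNORA63 locus (81376923 to 81377047) had 24.3, 15.4 and 12.2 TPM in combination, 7.24, 8.54 and 9.38 TPM in model and 11.7, 15.0 and 10.8 TPM in normal libraries. All 4 were above every model library in every combination library. Relative to Eif4a2, all 4 were higher in combination than in model cells, by 2.02 for SNORA4, 1.59 and 1.14 for the SNORA63 loci and 1.47 for SNORA81 on the log2 scale (adjusted p = 0.00012 to 0.0097 by limma). Against normal cells, the ratios in model cells were lower for SNORA4 (-1.13) and the first SNORA63 locus (-0.90), and did not pass for SNORA81 (-0.45) or the second SNORA63 locus (-0.62).

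Taf1d (rn6 chromosome 8, 13861459 to 13871354, plus strand), which encodes a factor of the RNA polymerase I promoter complex, held 6. The host had 166, 224 and 193 TPM in combination, 186, 122 and 200 TPM in model and 139, 135 and 91.3 TPM in normal libraries. SNORA25 had 25.6, 15.8 and 17.9 TPM in combination, 10.5, 13.7 and 11.6 TPM in model and 30.7, 28.4 and 24.8 TPM in normal libraries. SNORA18 had 27.0, 22.1 and 20.3 TPM in combination, 10.5, 14.1 and 17.1 TPM in model and 23.2, 25.7 and 20.6 TPM in normal libraries. For both, the model libraries were the lowest 3 of the 9. SNORA32 had 8.50, 7.87 and 8.66 TPM in combination, 2.87, 5.41 and 7.39 TPM in model and 12.1, 12 and 10.5 TPM in normal libraries. SNORA8 had 4.73, 2.62 and 3.76 TPM in combination, 0.993, 0.846 and 1.56 TPM in model and 3.63, 2.84 and 1.99 TPM in normal libraries. Relative to Taf1d, SNORA25, SNORA32, SNORA8, SNORA1 and SNORA18 were lower in model than in normal cells, by 1.18 to 1.63 on the log2 scale, and SNORA40 did not pass, at -0.77 (adjusted p = 0.091 by limma). In combination against model cells the ratio passed for SNORA8 alone of the 6 (0.91, adjusted p = 0.033 by limma), and against normal cells it was lower for SNORA1 (-1.16, adjusted p = 0.028 by limma). Exons of 2 assembled transcripts lay over SNORA25, so its reads cannot be told from theirs.

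**Figure D5:**
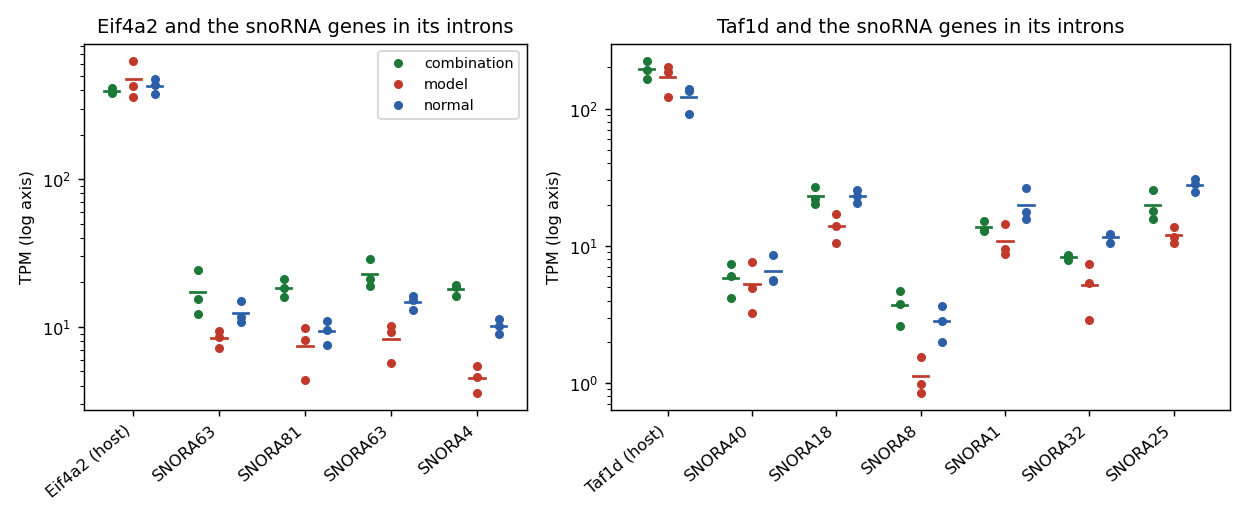
TPM on a log axis in each library for Eif4a2 (left) and Taf1d (right) and for the H/ACA snoRNA genes in their introns, in the order of transcription. Points are libraries and short lines are means of 3 libraries. Model libraries are the lowest for SNORA4 and SNORA8, while both hosts overlap between combination and model.

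Other hosts held smaller groups. In Rpsa, a small-subunit protein gene, the SNORA62 locus of higher level changed by -0.64 in model against normal cells and did not pass (adjusted p = 0.099 by limma), and the smaller SNORA62 locus, at 1.08 to 2.11 TPM in combination, 0.755 to 1.69 TPM in model and 1.73 to 2.80 TPM in normal libraries, also did not pass. In Rpl5, both SNORA66 loci had log2 fold changes near -1.2 (-1.16 and -1.17) that did not pass, with adjusted p-values of 0.058 and 0.093 by limma, while the ratio to the host was lower at the first (-0.89, adjusted p = 0.040 by limma) and did not pass at the second (-0.90, adjusted p = 0.080 by limma). In Tbrg4 the SNORA5 loci did not pass on level in any comparison, but their ratios to the host were higher in combination than in model cells (0.94 and 1.04). Cct6a, a subunit of the TRiC chaperonin, held SNORA22, whose ratio was lower in model than in normal cells (-1.18) and higher in combination than in model cells (1.04), and SNORA15, whose ratio did not pass. Nop56, a core protein of C/D particles, was lower in combination than in model cells by 0.75 on the log2 scale (-0.75 ± 0.17, adjusted p = 0.046 by limma), and its SNORA51 had a ratio that was higher by 1.73.

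In 3 hosts the host rose in model cells. Odc1, the rate-limiting enzyme of polyamine synthesis, had 428, 231 and 711 TPM in model and 124, 80.6 and 100 TPM in normal libraries (log2 fold change 2.03 ± 0.36, adjusted p = 0.024 by limma). Its SNORA42 had 7.97, 1.17 and 13.1 TPM in model and 4.58, 2.60 and 4.69 TPM in normal libraries, with overlapping groups and a ratio to the host that was lower by 1.61. Iars, the cytoplasmic isoleucyl-tRNA synthetase, had 38.5, 20.3 and 49.0 TPM in model and 12.8, 14.0 and 8.97 TPM in normal libraries. The SNORA84 gene in its intron had 1.39, 0.566 and 1.53 TPM in model and 1.69, 2.29 and 1.80 TPM in normal libraries, and its ratio was lower by 1.91 in model than in normal cells and by 1.93 in combination than in normal cells. SNORA84 itself changed by -0.46 and -0.13 in these comparisons and did not pass, while Iars rose by 1.45 and 1.81. Another SNORA84 entry, outside Iars, had near-equal values, so reads may have been split between them. Rcc2, which takes part in mitosis and cell spreading, had 323, 145 and 582 TPM in model and 67.0, 65.4 and 50.1 TPM in normal libraries. Its SNORA15 had 8.59, 6.06 and 19.2 TPM in model and 3.43, 1.5 and 2.38 TPM in normal libraries, every model library being above every normal one (log2 fold change 1.73 ± 0.49, adjusted p = 0.068 by limma). In combination libraries Rcc2 had 101, 88.7 and 70.0 TPM, lower than in model cells by 1.80 on the log2 scale (adjusted p = 0.045 by limma), and SNORA15 had 13.7, 3.52 and 4.96 TPM. The fourth host past the threshold in model against normal cells was Rplp2, which fell by 0.61 on the log2 scale. LOC100911575, which has the same assembled locus and exon length (348 bases), changed by 0.09 and did not pass. Reads may have been split between them, which was not tested, so the fall of Rplp2 is uncertain.

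Of the 55 names, 29 stood at 1 locus and 26 at several, and names at several loci made up 69 of the 98 genes. SNORA44 was listed at 39 loci, of which 9 reached a mean of 1 TPM. Loci of 1 name can hold near-identical copies between which reads may have been split, so their separate values are uncertain. The SNORA44 loci on rn6 chromosome 2 had near-equal values: the first had 4.52, 3.21 and 2.59 TPM in combination, 1.32, 2.33 and 0.818 TPM in model and 5.60, 3.99 and 5.29 TPM in normal libraries, and the other had 4.50, 3.13 and 2.50 TPM in combination, 1.29, 2.19 and 0.792 TPM in model and 5.81, 3.74 and 5.13 TPM in normal libraries. They should not be read as separate results, although both passed in model against normal cells. The X chromosome copy had 13.9, 12.7 and 0 TPM in combination, 8.83, 0 and 6.32 TPM in model and 0 TPM in all 3 normal libraries, so that it was listed at 0 in 5 libraries. The spans of SNORA17 and SNORA43 on chromosome 3, each of 2 named transcripts, overlap at 1 locus, so the entries may share reads. SNORA17 there had 13.9, 13.3 and 14.2 TPM in combination, 9.55, 15.6 and 5.30 TPM in model and 22.9, 32.4 and 20.4 TPM in normal libraries. It was lower in model than in normal cells (log2 fold change -1.32 ± 0.32, adjusted p = 0.047 by limma), while SNORA43 did not pass (adjusted p = 0.087 by limma). The SNORA84 genes on chromosome 17 and the smaller SNORA2 loci on chromosome 7 were also close in value to each other.

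Snora58, in an intron of Alkbh1, is shown because the RefSeq table lists a microRNA hairpin under that symbol. The hairpin lies at chr6:112811875-112811950 on the minus strand of GRCr8 and has 76 bases, with the 2 mature arms in capitals. The arms follow with the seed, bases 2 to 8, in capitals.
Snora58 hairpin: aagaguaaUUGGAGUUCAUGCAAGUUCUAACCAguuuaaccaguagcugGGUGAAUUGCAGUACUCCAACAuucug
rno-miR-3068-5p: uUGGAGUUcaugcaaguucuaacca
rno-miR-3068-3p: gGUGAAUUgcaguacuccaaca
In the files Snora58 was 135 bases long and had 3.20, 2.77 and 2.48 TPM in combination, 2.75, 3.23 and 3.27 TPM in model and 4.95, 5.94 and 4.23 TPM in normal libraries. Normal libraries were above all others, and the log2 fold change in model against normal cells was -0.56 ± 0.18 (adjusted p = 0.091 by limma). The files use rn6, so whether the hairpin lies within this entry was not tested.

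The 4 proteins of the H/ACA particle did not pass in any comparison. Dkc1, the pseudouridine synthase itself, had 142, 142 and 104 TPM in combination, 216, 170 and 270 TPM in model and 186, 190 and 155 TPM in normal libraries, with log2 fold changes of -0.74 ± 0.20 in combination against model cells (adjusted p = 0.064 by limma) and 0.28 ± 0.20 in model against normal cells (adjusted p = 0.38 by limma). Nhp2, an RNA-binding subunit, had 26.4, 31.7 and 33.5 TPM in combination, 27.3, 32.9 and 15.8 TPM in model and 43.1, 58.4 and 34.5 TPM in normal libraries, every model library being below every normal library. Nop10 had 42.0 to 47.3 TPM in combination, 48.5 to 53.6 TPM in model and 51.9 to 58.9 TPM in normal libraries, and Gar1 24.3 to 42.1 TPM in combination, 41.3 to 49.7 TPM in model and 50.8 to 71.6 TPM in normal libraries. All 4 were lower in every combination library than in every normal library, as were 17.9% of all genes, without passing. Of 5 assembly factors, 0 passed in model against normal cells, and Shq1, the chaperone of dyskerin, and Ruvbl1, an ATPase of the assembly complex, were lower in combination than in model cells (-0.77 ± 0.16 and -0.59 ± 0.14, adjusted p = 0.038 and 0.046 by limma). Naf1, which precedes Gar1 on the nascent particle, had 19.1, 18.4 and 14.2 TPM in combination, 22.4, 18.3 and 40.9 TPM in model and 11, 15 and 9.96 TPM in normal libraries and did not pass. Ruvbl2 was lower in combination than in normal cells (-0.77 ± 0.18, adjusted p = 0.045 by limma). Of 5 nucleolar and Cajal body partners, Nolc1, a nucleolar chaperone of snoRNPs, was lower in combination than in model cells (-0.78 ± 0.18, adjusted p = 0.046 by limma), and the other 4, with Coil and Wrap53 among them, did not pass in any comparison. None of the 6 genes found for 3 prime end processing and decay, Parn, Papd5 and Exosc10 among them, passed in any comparison. Of 11 stand-alone pseudouridine synthases, Rpusd4, a mitochondrial enzyme, was higher in model than in normal cells (0.79 ± 0.18) and lower in combination than in model cells (-0.87 ± 0.18), and Pus1 was lower in combination than in model cells (-0.90 ± 0.18). Pus1 and Pus7 were lower in combination than in normal cells. Over all 31 pathway genes, and against the shares of all genes given above (2.83% higher and 2.14% lower, 2.41% higher and 2.08% lower, 2.63% higher and 1.95% lower for the 3 comparisons), 1 was higher and 0 lower in model against normal cells with a median of 0.06, 0 higher and 5 lower in combination against model cells with a median of -0.36, and 0 higher and 3 lower in combination against normal cells with a median of -0.23.

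The least abundant genes kept were SNORA70 on chromosome 2, with a mean of 1.02 TPM, and SNORA21 in Tardbp, with a mean of 1.12 TPM. The first had 0.832, 1.46 and 0.491 TPM in combination, 1.04, 0.456 and 1.26 TPM in model and 0.970, 1.98 and 0.727 TPM in normal libraries. Just below the limit were a SNORA7 locus, with 0.561, 1.29 and 1.02 TPM in combination, 0.214, 1.82 and 0.342 TPM in model and 0.997, 1.05 and 1.33 TPM in normal libraries, and a SNORA24 locus, with 0.982, 2.62 and 0.859 TPM in combination, 1.07, 0.380 and 1.32 TPM in model and 0.196, 0.282 and 0.716 TPM in normal libraries. The groups overlapped for SNORA70 and SNORA7, while for SNORA24 every combination library was above every normal library. The 538 entries above 0 but under the limit summed to 31.7 to 124 TPM in a library and were not tested; a gene close to the limit may have reached it through the group in which it is high.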

How the data were processed

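Total RNA of CD4+ T cells was extracted with Trizol and made into libraries with an NEBNext Ultra RNA kit, per the labels' protocols. The labels' protocols do not state poly(A) or ribosomal RNA selection, size selection or strand. Reads were handled with bcl2fastq and HISAT2 on rn6, per the submitters' processing notes, and the files hold coverage, FPKM and TPM of 80092 transcripts, which StringTie 1.3.3b estimated on a merged annotation, per the file headers. These deposited attributes sit in 1 text field of each line, so the field is recorded as another unit. The headers name the combination libraries differently from the labels; the labels were followed.

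The members and lists were chosen with earlier results of these data known. TPM was summed per name and locus. Genes under 300 bases took named transcripts only. A host is the named longer gene on the same strand whose span contains the snoRNA. Genes averaging 1 TPM or more were tested as log2(TPM + 1) in limma 3.58.1 (R 4.3.3) with 1 coefficient per group, variances moderated along an intensity trend, and 6 residual beside 3.52 prior degrees of freedom. Benjamini-Hochberg adjustment ran over all 14177 genes, or over all ratios to a host, with a threshold of 0.05. Raw counts are not used here, so intervals for counting error were not derived, and the depth behind a short gene is limited: coverage of the 98 genes was at most 848 per base. Reads of unspliced host RNA cannot be told from the snoRNA. The procedure was tested on simulated data. Tables were made with pandas 2.3.3 and numpy 2.4.6 in Python 3.11.15, and figures with matplotlib 3.10.9.

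Genes were named by rule: the 10 most abundant snoRNA genes, up to 12 changed genes per direction and comparison, their hosts, snoRNA genes that share a host or a name, a list of particle proteins and cofactors, and the 2 genes on each side of the limit of 1 TPM. One gene that the rule names is not reported here. Ratios named beyond these, and Snora58, were chosen after their values were seen. Equal replicate numbers did not pair the libraries.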

Additional observations from a re-analysis of the deposited data

How the results depend on the processing

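For the 6 counts of calls, alternatives were pseudocounts of 0.1 and 5, no filter, at least 5 TPM, FPKM, median-ratio scaling, haemoglobin, mitochondria and ribosomal protein genes left out, a fit of only 2 groups, no intensity trend, assembled transcripts added, the replicate block and omission of each library; for ratios to the host, the pseudocounts, 2 groups, no trend, the block and omissions. No call among the 98 snoRNA genes, their hosts and the pathway genes changed sign under an alternative in which the gene was tested. The number of H/ACA snoRNA genes called in model against normal cells was 25, and 4 without a filter, 39 on FPKM, 8 with only 2 groups and 2 to 32 with a library left out. In combination against model cells it was 12, and 3 without a filter, 7 at 5 TPM, 21 on FPKM, with median-ratio scaling and with genes of haemoglobin, mitochondria and ribosomal proteins left out, 1 with only 2 groups and 1 to 15 with a library left out. In combination against normal cells it was 3, and 1, 7, 6 and 5 without a filter, on FPKM, with median-ratio scaling and without those genes, 7 with only 2 groups and 0 to 8 with a library left out. Ratios to the host gave 26, 26 and 2 calls, with 19 to 27, 13 to 26 and 1 to 4 when a library was left out, and 7 in combination against normal cells at a pseudocount of 5. Residuals of libraries with equal numbers correlated at -0.135 to 0.0625 and 1 library of 9 was closest to a library of its own number; with the replicate block, 11, 1 and 0 genes and 25, 25 and 1 ratios passed. The causes of these shifts were not tested. SNORA26 and SNORA16 in model against normal cells and SNORA4 in combination against model cells passed in each of their alternatives (19, 20 and 20), with adjusted p-values by limma of 0.00385 to 0.0435, 0.0025 to 0.0473 and 0.00378 to 0.0499. The calls named among particle cofactors and pseudouridine synthases passed in 7 to 12 of 19 or 20 alternatives each. The deposited values give no read counts, so counting error at low levels was not measured.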
